A study of Homo sapiens with 12 samples.

Results

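The loci of 9 genes that PAX5 is known to keep off, or that belong to fates a B cell has to avoid, were examined for PAX5 binding in 3 human lymphoma cell lines. They are CSF1R, FLT3, NOTCH1, PRDM1, XBP1, GATA3, ID2, CD28 and SDC1. A peak was counted at a locus when it overlapped a fixed hg19 window around the gene, and the windows were 50 to 150 kb long and covered 0.74 Mb in all. Of 25380 peaks in the 6 deposited lists, 20 lay in these windows, and after joining peaks that overlapped or touched they formed 14 of 14465 regions. Each list came from 1 chromatin immunoprecipitation with a PAX5 antibody, and each line had 2 such libraries. L428-PAX5 is a classical Hodgkin lymphoma line that was treated with mifepristone and in which PAX5 overproduction was switched on 48 h before fixation. Raji and Namalwa are untreated Burkitt lymphoma lines, that is, lines from a tumour of mature B cells. All L428-PAX5 libraries are of induced cells. The 6 input libraries were not analysed here. The labels say neither whether L428-PAX5 is 1 clone nor whether replicate libraries were made from separate cultures.

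PAX5 is a paired-domain transcription factor that commits early lymphoid cells to the B lineage, where it activates B-cell genes and represses genes of other lineages. Its repressed targets were worked out largely in the mouse and include receptors of myeloid and early progenitor cells and genes of T cells. When a B cell becomes a plasma cell, PRDM1 (Blimp-1) shuts off PAX5, and genes such as XBP1 and SDC1 come on. Tumour cells of classical Hodgkin lymphoma switch off many B-cell genes, and expression of CSF1R, GATA3, ID2 and NOTCH1 has been described in them. RNA was not measured in these samples, so the peaks say where PAX5 was found and nothing about repression.

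The promoters of XBP1 and PRDM1 are shown because these were the loci with peaks in all 3 lines. The sequences run from 250 bases before to 50 bases after the RefSeq start and come from GRCh38.p14, while the peaks are on hg19, so no peak was placed on a promoter. The XBP1 sequence is the minus strand of chr22:28800520-28800819, and the PRDM1 sequence is the plus strand of chr6:106086086-106086385. Capitals mark a match to the core of the PAX5 motif, searched on both strands as GCGTGAC or GCATGAC.
XBP1 promoter: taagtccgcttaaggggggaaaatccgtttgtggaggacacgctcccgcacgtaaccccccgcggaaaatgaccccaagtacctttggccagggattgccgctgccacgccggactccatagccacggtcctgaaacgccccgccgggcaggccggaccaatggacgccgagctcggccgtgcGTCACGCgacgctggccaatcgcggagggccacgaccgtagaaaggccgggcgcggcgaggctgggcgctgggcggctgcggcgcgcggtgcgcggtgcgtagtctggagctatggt
PRDM1 promoter: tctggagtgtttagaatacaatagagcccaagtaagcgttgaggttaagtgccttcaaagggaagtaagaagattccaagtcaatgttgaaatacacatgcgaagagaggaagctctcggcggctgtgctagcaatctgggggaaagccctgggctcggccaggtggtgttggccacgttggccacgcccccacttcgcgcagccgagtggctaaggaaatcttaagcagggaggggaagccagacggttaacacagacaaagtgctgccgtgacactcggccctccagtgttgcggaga
The match in XBP1 is GCGTGAC read on the opposite strand, and its first printed base lies 67 bases before the start. It was the only match among the 18 RefSeq promoters listed for the 9 genes, some of which have several starts. XBP1 and PRDM1 each have another listed promoter, chr22:28800028-28800327 and chr6:106098691-106098990, which is not shown and held no match. Over all 35116 RefSeq promoters of this length, 4.15% hold either form. A match describes the letters of the sequence and is not a measured binding site.

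PAX5 peaks were found at 5 of the 9 loci, namely XBP1 with 8, PRDM1 with 6, and CSF1R, GATA3 and CD28 with 2 each. No list held a peak in the windows of FLT3, NOTCH1, ID2 or SDC1. The share of genome stretches with a peak in any of the 6 lists was not computed, and the shares below are for single lines. L428-PAX5 had a peak at 4 of the 9 loci (44.4%), beside 12% of all 70 kb stretches of the genome. Raji had a peak at 2 loci (22.2%), beside 9.29% of all such stretches, and Namalwa at 3 loci (33.3%), beside 10.9%. The stretches have the median length of the windows. They were laid end to end along each chromosome and include gene-free and unassembled sequence, whereas every window was set on a gene. With stretches as long as each window, the mean shares were 13.5% for L428-PAX5, 10.5% for Raji and 12.3% for Namalwa. All 3 lines thus had peaks at these loci more often than along the genome as a whole, but the counts are 4, 2 and 3 of 9, and the difference was not tested.

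Fewer loci had a region that both libraries of a line found. In L428-PAX5 this held for 2 loci, CSF1R and XBP1 (22.2%), beside 4.9% of all 70 kb stretches. In Raji it held for PRDM1 alone (11.1%), beside 4.35%, and in Namalwa for XBP1 alone (11.1%), beside 3.83%. Of the 14 regions, 5 (35.7%) were found in both libraries of a line, against 36.7% of all 14465 regions in the series. In lists cut to equal length, and in the better 50% of each list, no locus had a region in both L428-PAX5 libraries or in both Raji libraries. In the better 50% none had one in Namalwa either, while in lists of equal length Namalwa kept 1 locus. Each of the 5 regions had, in at least 1 library of its line, a peak weaker than the median of the full list. The share of all stretches was not computed for either cut. In the lists as deposited, PAX5 regions at these loci recurred between libraries of a line about as often as PAX5 regions did anywhere.

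**Figure D1:**
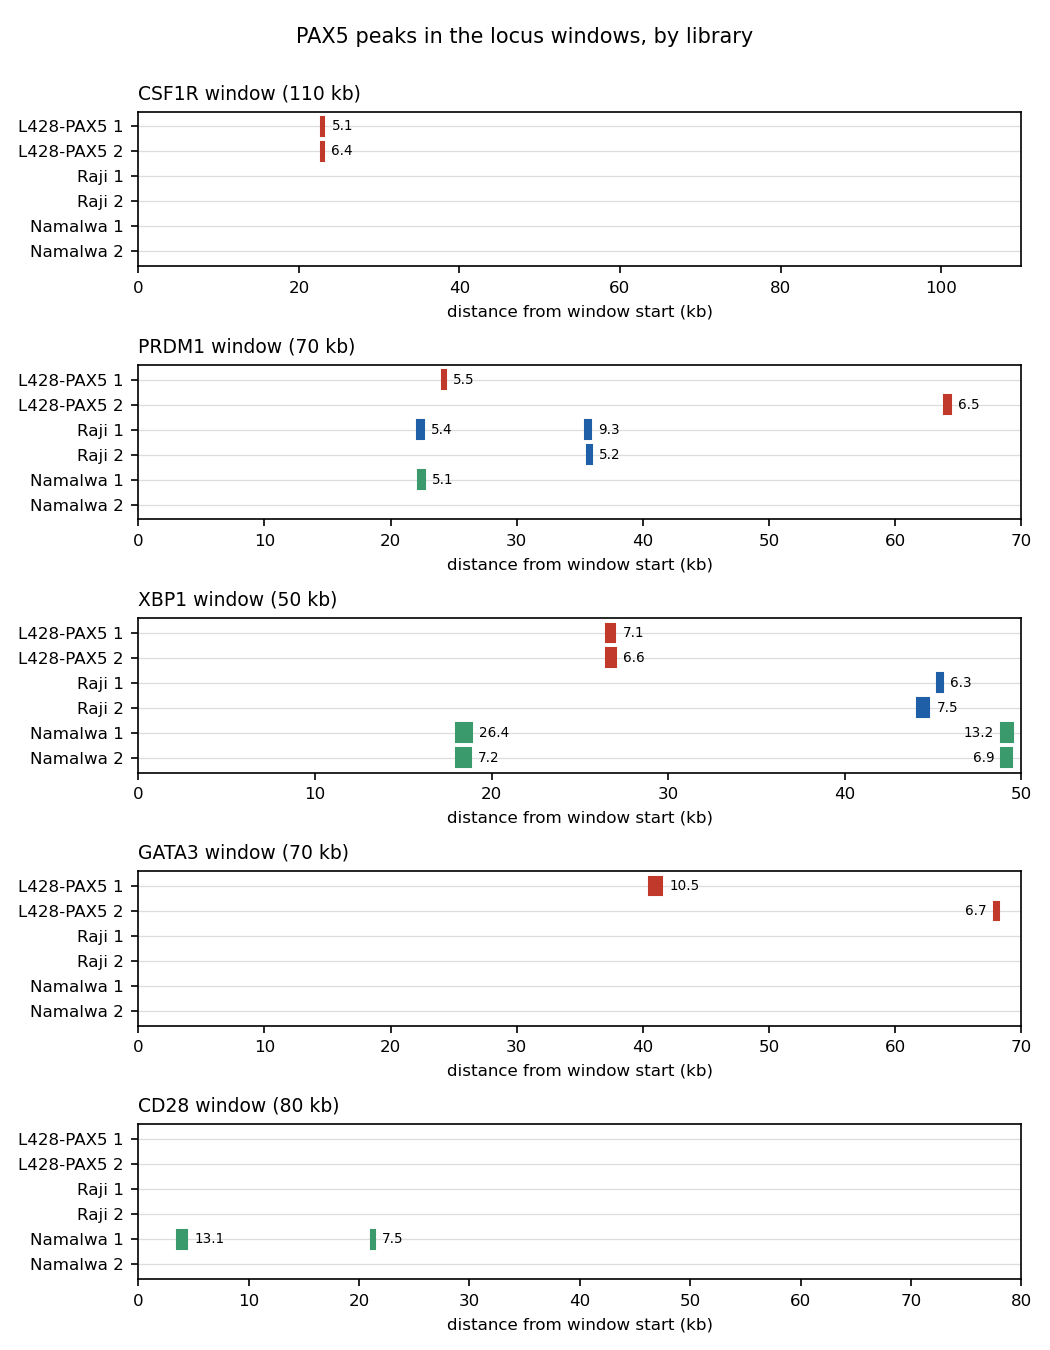
Positions of the 20 peaks in the 5 windows that held any, as distance from the window's start in kb, with 1 row per library and the −log10 p of each peak printed beside it. Bars are drawn to scale, L428-PAX5 is red, Raji blue and Namalwa green. No L428-PAX5 bar shares its position with a Burkitt bar, beside 7.9% of all regions in the series that are so shared.

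**Figure D2:**
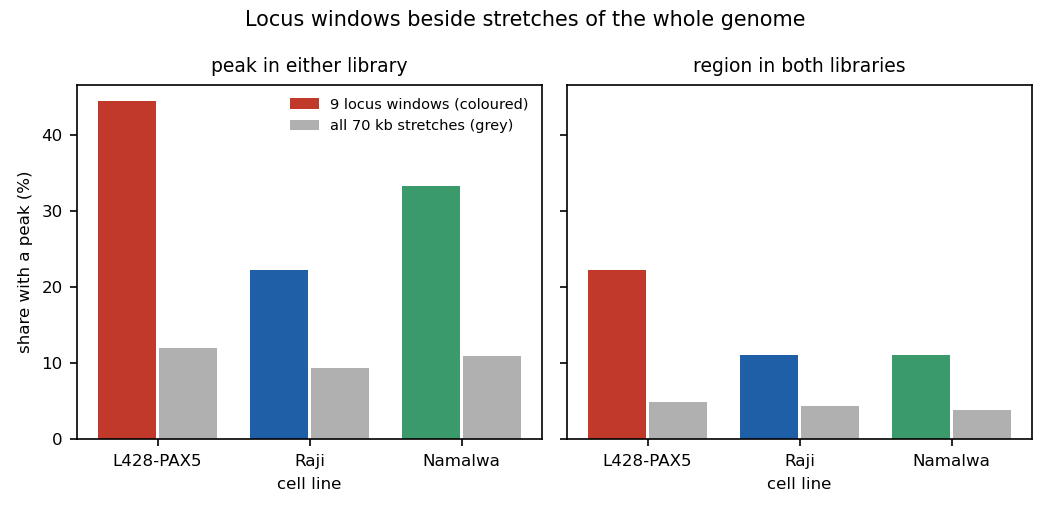
Share of the 9 locus windows (coloured bars) and of all 70 kb stretches (grey bars) with a peak in either library of a line (left) and with a region found in both libraries (right), in percent. The windows reached 44.4% in L428-PAX5, 22.2% in Raji and 33.3% in Namalwa in the left panel. In lists of equal length the L428-PAX5 and Raji bars of the right panel fall to 0, and the grey bars were not computed for such lists.

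XBP1 (window chr22:29170000-29220000), the transcription factor that expands the secretory pathway of plasma cells, was the locus with the most peaks and the only locus with a peak in every library. Its 5 regions lay at different places in the 3 lines. Of all regions in the series, 7.9% were common to L428-PAX5 and a Burkitt line. Both L428-PAX5 libraries found chr22:29196481-29197052, with a −log10 p of 7.05 in replicate 1 and 6.57 in replicate 2. Both Namalwa libraries found chr22:29187969-29188899, with 26.4 in replicate 1 and 7.16 in replicate 2, and chr22:29218861-29219532, with 13.2 and 6.87. The first of these was the strongest peak at any of the 9 loci and ranked 449 of 6241 peaks of Namalwa 1. Raji 2 had a peak at chr22:29214105-29214795 with a −log10 p of 7.50, and Raji 1 had one at chr22:29215220-29215555 with 6.32. The Raji peaks lay 425 bp apart and did not overlap, so Raji had no region in both libraries here. The L428-PAX5 region lay 7.58 kb from the nearer Namalwa region and 17.1 kb from the nearer Raji peak. RefSeq lists CCDC117 and ZNRF3 as the coding genes next to XBP1.

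PRDM1 (window chr6:106510000-106580000), which encodes the repressor Blimp-1 that drives plasma-cell differentiation, had 4 regions. None was common to L428-PAX5 and a Burkitt line, beside 7.9% of all regions in the series. L428-PAX5 1 had a peak at chr6:106534058-106534359 with a −log10 p of 5.51, and L428-PAX5 2 had one at chr6:106573836-106574412 with 6.46. Neither was found in the other L428-PAX5 library. Both Raji libraries found chr6:106545381-106545927, with 9.29 in replicate 1 and 5.16 in replicate 2, and no Namalwa library did. The region chr6:106532068-106532687 was found in Raji 1 with 5.36 and in Namalwa 1 with 5.07, and it lay 1.37 kb from the peak of L428-PAX5 1. It was the only region of the 14 shared between the Burkitt lines, and the share of all regions so shared was not computed. All these values but the 9.29 of Raji 1 fell below the median −log10 p of their lists, which ran from 7.05 to 8.62. SDC1 (window chr2:20380000-20450000), which encodes syndecan-1, the surface marker CD138 of plasma cells, had no peak in any list.

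CSF1R (window chr5:149410000-149520000), the receptor for the macrophage growth factor CSF1, had a single region, and it was found in L428-PAX5 alone. Both L428-PAX5 libraries had a peak at chr5:149432734-149433185, with a −log10 p of 5.12 in replicate 1 and 6.44 in replicate 2. None of the 4 Burkitt libraries had a peak in the 110 kb window. The L428-PAX5 peaks were weak, ranking 5911 of 6201 and 1978 of 3252 in their lists. The RefSeq neighbours of CSF1R are HMGXB3 and PDGFRB, and which gene the region lies in was not determined. FLT3 (window chr13:28550000-28700000), a receptor of early haematopoietic progenitors, had no peak in any list. Its window was the longest at 150 kb. Of all stretches of that length, 22.0% held a peak of L428-PAX5, 17.2% of Raji and 19.9% of Namalwa.

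Among the T-lineage genes, GATA3 had peaks in L428-PAX5 alone and CD28 in Namalwa alone, and none of these peaks was found in the line's other library. At GATA3 (window chr10:8070000-8140000), a transcription factor needed for T-cell development, L428-PAX5 1 had a peak at chr10:8110517-8111520 with a −log10 p of 10.5, the strongest L428-PAX5 peak at the 9 loci. L428-PAX5 2 had a peak at chr10:8137805-8138243 with 6.68, 26.3 kb away. At CD28 (window chr2:204550000-204630000), the co-stimulatory receptor of T cells, Namalwa 1 had peaks at chr2:204553508-204554427 with 13.1 and at chr2:204571094-204571453 with 7.46. NOTCH1 (window chr9:139370000-139460000), the receptor that starts T-cell commitment, had no peak in its window in any list. ID2 (window chr2:8800000-8850000), an inhibitor of the E proteins that B-cell development needs, had none either.

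Taken over all libraries, more peaks at these loci sat in the weaker than in the stronger part of their lists, though not in Namalwa 1. The percentile used here is the share of the other peaks of a list with a larger p, with ties counted in part to each side, so that 100 is the strongest peak and 50 the middle. Over the 20 peaks it had a median of 40.6 and a range of 1.71 to 92.8, and 5 peaks lay above the middle of their list. For L428-PAX5 the median was 40.4 over 8 peaks, with 1 above the middle, and for the Burkitt lines it was 40.8 over 12 peaks, with 4 above the middle. In Namalwa 1, which had the most peaks at these loci, the median was 73.8 over 5 peaks, with 3 above the middle. Over all peaks of a list the median percentile is 50 by construction. The 5 peaks above the middle were XBP1 in Namalwa 1 (92.8 and 74.2), GATA3 in L428-PAX5 1 (75.9), CD28 in Namalwa 1 (73.8) and PRDM1 in Raji 1 (67.0). Only the first of these was among the top 10% of its list.

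**Figure D3:**
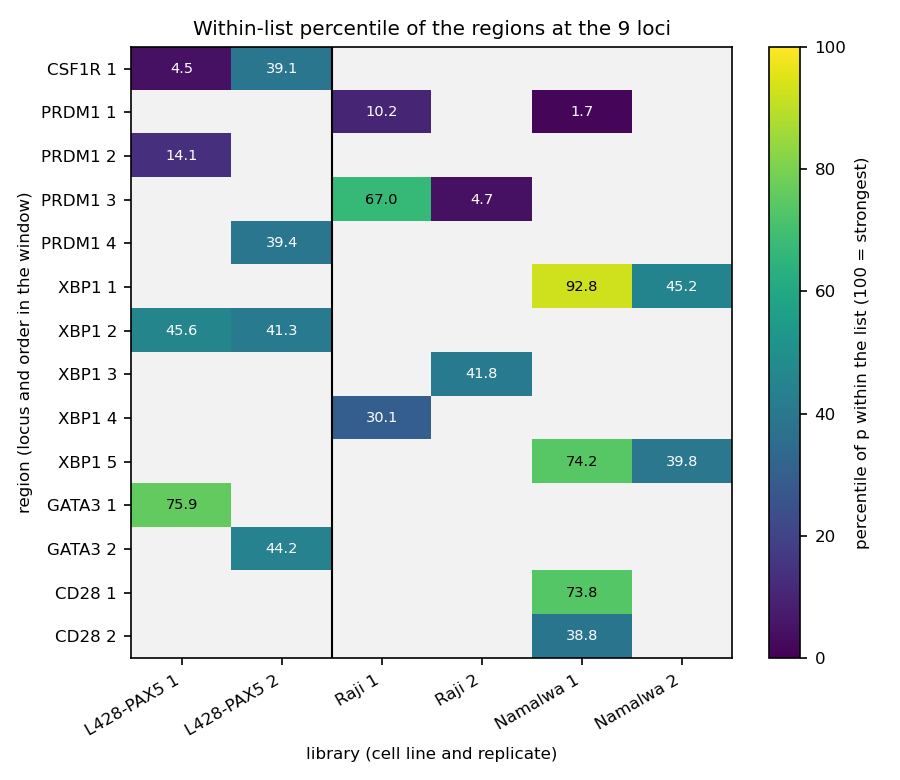
Within-list percentile of each of the 14 regions (rows, numbered along each window) in each library (columns), with blank cells where a list has no peak and a line between the L428-PAX5 and the Burkitt libraries. No row is filled on both sides of the line, beside 7.9% of all regions in the series that would be. The highest value is 92.8 at XBP1 in Namalwa 1.

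Whether a peak recurred was read against peaks of like strength in the same list, a comparison chosen after the values were seen. Of the 20 peaks, 10 were found in the line's other library (50%), while peaks within 5 percentile points of them in the same lists were found at 53.3% on average. The share among like peaks ran from 5.08 to 94.2%, according to the list and the strength of the peak. The CSF1R peak of L428-PAX5 1 was found in the other library, as 13.5% of like peaks were. Seen from L428-PAX5 2, the same overlap was of a strength at which 71.4% were. The PRDM1 peak of Raji 2 was also found in the other library, as 12.0% of like peaks were. Seen from Raji 1, that overlap was of a strength at which 94.2% were. In the other direction, the peaks of L428-PAX5 2 at PRDM1 and GATA3 were not found in L428-PAX5 1, where 71.3% and 75.2% of like peaks were. The Raji 1 peaks at XBP1 and at chr6:106532068-106532637 in PRDM1 were likewise not found in Raji 2, where 76.4% and 67.9% of like peaks were. Of the 8 L428-PAX5 peaks 50% were found in the other library, and of the 12 Burkitt peaks also 50%. The weaker CD28 peak of Namalwa 1 was of a strength at which 14.1% of peaks were found in Namalwa 2, and the stronger one of a strength at which 45.4% were.

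**Figure D4:**
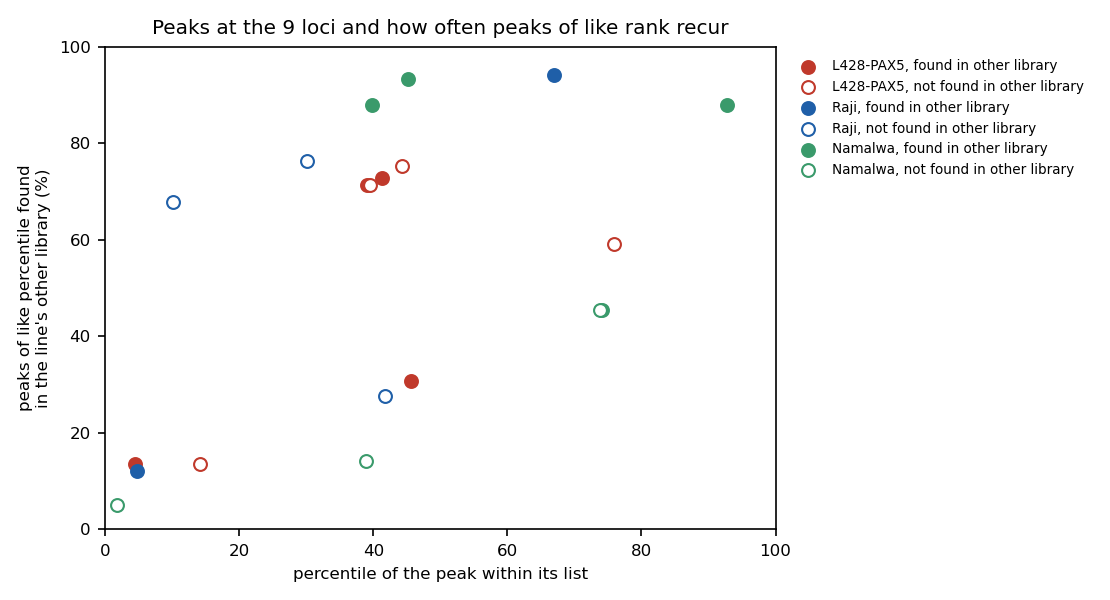
Each point is 1 of the 20 peaks, with its percentile within its list on the horizontal axis and the share of peaks of like percentile found in the line's other library, in percent, on the vertical axis. Filled points were found in the other library and open points were not. Colours give the line, and open points stand at shares as high as 76.4%.

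Set against each other, L428-PAX5 and the Burkitt lines had no common region at these loci in the lists as deposited, and 1 common region, at PRDM1, when peaks up to 5 kb apart were merged. Of the 14 regions, 6 were found in L428-PAX5 alone and 8 in Burkitt lines alone. Over the whole series, 7.9% of regions were found in L428-PAX5 and in a Burkitt line. That share is for the lists as deposited, and the share with merging up to 5 kb was not computed. As a rough limit, set at 3 counts over the 14 regions, a count of 0 allows a share of up to 21.4%. This limit treats the regions as independent, though several lie at the same locus. Of the 20 peaks, 0 were found in the opposite lines, while peaks of like percentile in the same lists were found there at 15.3% on average, with a range of 9.93 to 19.8%. Peaks of 1 region share their position and are no separate counts, and with so few regions the 0 was not shown to differ from the series. The locus as a whole could still hold peaks of both, as XBP1 and PRDM1 did, although no region at PRDM1 was found in both L428-PAX5 libraries.

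To compare loci rather than positions, the highest percentile of each library in the window was taken, with 0 where a list had no peak. At GATA3 it was 75.9 and 44.2 in L428-PAX5, against 0 in all 4 Burkitt libraries, a difference of 60.1 points. At CSF1R it was 4.46 and 39.1 in L428-PAX5, against 0 in all 4 Burkitt libraries, a difference of 21.8 points. In the lists as deposited these were the only loci where the groups did not overlap. The share of all stretches of the genome with such a pattern was not computed, so the count says nothing particular about these loci. In lists of equal length the CSF1R peak of L428-PAX5 1 dropped out, the groups overlapped and the difference was 3.00 points, while that of GATA3 was 21.5 points. At PRDM1 it was 14.1 and 39.4 in L428-PAX5, against 67.0 and 4.68 in Raji and 1.71 and 0 in Namalwa, a difference of 8.41 points that became -4.28 without L428-PAX5 2. At XBP1 it was 45.6 and 41.3 in L428-PAX5, against 30.1 and 41.8 in Raji and 92.8 and 45.2 in Namalwa, a difference of -8.97 points that became 4.49 without Namalwa 1. At CD28 it was 0 in both L428-PAX5 libraries, against 73.8 in Namalwa 1 and 0 in the other 3 Burkitt libraries, a difference of -18.4 points that rests on Namalwa 1 alone. The planned two-sided exact permutation over the 15 choices of 2 libraries gave p = 0.0667 for GATA3 and CSF1R, 0.8 for PRDM1, 0.867 for XBP1 and 1 for CD28. It supports nothing here, because 0.0667 is the smallest value these choices allow and because GATA3 and CSF1R entered only through their L428-PAX5 peaks. The differences are thus a description of these lists. In L428-PAX5 the line, the tumour type, the mifepristone treatment and the induced PAX5 level cannot be told apart.

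Within 50 kb outside the windows there were 9 further peaks, all of L428-PAX5, at NOTCH1, PRDM1, XBP1, GATA3 and CD28. They lay in 6 of the 18 flanks (33.3%), beside 9% of all 50 kb stretches with an L428-PAX5 peak. The 9 peaks formed 7 regions. The peaks before NOTCH1, those beyond PRDM1 and that of L428-PAX5 1 beyond CD28 lay 49.2 to 49.9 kb out, close to the 50 kb limit. Raji and Namalwa had a peak in 0 of the 18 flanks, beside 6.97% and 8.24% of all such stretches. L428-PAX5 holds 37.2% of all peaks in the lists, and the difference was not tested. The nearest was at NOTCH1, chr9:139469246-139469598, 9.25 kb beyond the window with a −log10 p of 5.83 in L428-PAX5 1. The only place of these found in both L428-PAX5 libraries lay beyond PRDM1, at chr6:106629207-106629921 in replicate 1 and chr6:106629529-106630008 in replicate 2, with 6.58 and 5.02. The member nearest to an edge was the Namalwa region of XBP1 that ended 468 bp inside it.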

How the data were processed

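PAX5 chromatin immunoprecipitation was sequenced in 2 libraries each of L428-PAX5, Raji and Namalwa, with groups and replicate numbers taken from the sample titles. The authors deposited 1 peak list per library, of 2107 to 6241 peaks, with a p-value per peak, all below 1e-05. Per the submitters' processing notes, hg19, BWA 0.5.9-r16 and CASAVA 1.3 and 1.8 were used, and peak names in the files begin with PeakRanger, a peak caller. Not given in the sources used here are the caller's settings, the use of input, whether the p-value is adjusted and whether starts count from 0 or 1. Coordinates are printed as the files give them. Read depth is unknown, and a missing peak may be one that fell short of the caller's threshold.

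Peaks overlapping a window by at least 1 bp were members. Peaks of all lists that overlapped or touched were merged into regions. Every region in at least 2 libraries and the strongest of each locus were to be named, and in the end all 14 were. The loci and windows were chosen with earlier results of these data known, so no score over them was tested. Gene positions, and a planned list of other lineage genes, were not used, because the RefSeq tables at hand are on GRCh38.p14. Alternatives were the peak centre, windows widened by 50 kb, the better 50% of each list, lists of 2107 peaks, each library left out, a reciprocal overlap of 50%, a replicate block and, chosen after seeing the data, merging up to 1 or 5 kb. Counting was tested on simulated lists, where 8 of 8 planted values were recovered. Python 3.11.15, numpy 2.4.6, pandas 2.3.3 and matplotlib 3.10.9 were used.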

Additional observations from a re-analysis of the deposited data

How the results depend on the processing

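Of 101 counts recomputed, 23 moved by more than 1.5 times. The better 50% of each list, where fewer peaks enter by construction, left 5 peaks in 5 regions, with 0 regions reproducible in L428-PAX5, 0 in a Burkitt line and 0 loci with a reproducible region in L428-PAX5, Raji or Namalwa. Lists of equal length left 12 peaks, 0 regions and 0 loci reproducible in L428-PAX5 and 0 loci in Raji. Merging peaks up to 1 kb apart gave 2 reproducible loci in Raji, since the XBP1 peaks then joined. Merging up to 5 kb gave 2 as well, and 1 region found in L428-PAX5 and in a Burkitt line, at PRDM1. With a library left out, a line with 1 library counts any peak in it. Regions reproducible in L428-PAX5 then numbered 2 to 4 (4 without either L428-PAX5 library), those in a Burkitt line 3 to 6 (6 without Namalwa replicate 2, 5 without Raji replicate 2), and loci 2 to 4 in L428-PAX5, 1 to 2 in Raji and 1 to 3 in Namalwa (3 without Namalwa replicate 2). Peak centres, widened windows and reciprocal overlap moved none of the counts by that much. Widened windows came closest, with 29 peaks in 21 regions against 20 in 14. They gave 3 regions and 3 loci reproducible in L428-PAX5 against 2 each. The region count and these L428-PAX5 counts reached the limit without passing it, and all added peaks were of L428-PAX5.

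Of 40 recomputed locus differences, 3 changed direction. For PRDM1 the difference ran from -4.28 (without L428-PAX5 replicate 2) to 24.6 with libraries left out and was -11.5 in lists of equal length. For XBP1 it ran from -16.4 to 4.49 (without Namalwa replicate 1). In lists of equal length the difference was 3.00 at CSF1R, where the groups then overlapped (exact permutation p = 0.333), 21.5 at GATA3, -29.5 at XBP1 and -5.59 at CD28, against 21.8, 60.1, -8.97 and -18.4 in the full lists. The replicate block gave the same differences by construction, 60.1 at GATA3 and 21.8 at CSF1R, each with an exact permutation p of 0.111, the smallest that its 9 choices allow. Like the 0.333 at CSF1R, these p-values support nothing, because both loci entered only through their L428-PAX5 peaks. Nothing in the labels says that equal replicate numbers pair the libraries.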
